A study of Chilo suppressalis with 6 samples.

Results

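The genes described here are the 100 transcripts of *C. suppressalis* larvae whose lowest level after (E)-β-farnesene (Eβf) stood farthest above their highest level in the solvent control, out of 38966 genes in the expression table. They were chosen on the measured values. Among genes with identical values the first was kept, which left 33948. The 100 genes with the highest mean level and the genes listed at 0 in all 3 controls were then left out, and 5 FPKM or more were required in each of the 3 Eβf libraries. FPKM counts fragments per kilobase of gene and scales them to the fragments of the library, so that levels of different genes can be set side by side. These steps left 4115 eligible genes. Each received a score, the log2 of its lowest Eβf FPKM plus 1 minus the log2 of its highest control FPKM plus 1. The score was above 0 in 979 genes, and the 100 highest scores made the list.

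The larvae belonged to a laboratory sensitive population of the striped rice stem borer, a moth whose caterpillars tunnel in rice stems. In the Eβf group they ate an artificial diet with 0.8 g/kg Eβf, and in the control group a diet with the solvent, up to the 3rd instar. Poly(A) RNA was sequenced in 3 libraries from each group. The labels name 6 larvae for the RNA extraction. Whether a library holds 6 larvae or 1 is not settled by the sources used here, so a p-value measures the spread between these libraries. The age of the larvae within the instar is not given for the libraries, and age and diet cannot be told apart. In RNA extracted from larvae, fewer cells of a type and less RNA per cell cannot be told apart either. The table marks its libraries as TFN and TYC. Neither code is spelled out in the sources used here. The letters of TFN were taken to stand for farnesene, which leaves TYC for the solvent control, and each direction below rests on this.

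Eβf is a sesquiterpene that plants emit when insects feed on them, and aphids release it as an alarm pheromone. It resembles the juvenile hormones of insects, which are sesquiterpenoids too. Juvenile hormones keep a larva larval through its moults, and ecdysteroids set the moults off. The purpose of the sequencing was to see which larval transcripts differ after Eβf. The gene IDs carry no names. IDs that start with evm are annotated gene models, and IDs that start with MSTRG are loci assembled by StringTie from the reads. Since 0 of the IDs matched the 11366 genes of the reference assembly PGI_CHILSU_V6, no function, sequence or tissue can be given for any of the genes below, and the labelled stage could not be checked against marker genes.

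Control replicate 3 stood apart before any gene was chosen. Over the 11932 genes tested its Pearson correlation to control replicates 1 and 2 was 0.810 and 0.771, while these correlated at 0.918 with each other. The Eβf libraries correlated at 0.863 to 0.890. These correlations run across genes, which are not independent replicates. In the sequencing summary of the paper, control replicate 3 had the lowest base quality and the lowest share of aligned reads, with Eβf replicate 3 next in both. The GC content was highest in control replicate 3 and lowest in Eβf replicate 3. Whether these differences bear on the levels below was not tested. Relative depth, read from the steps between low FPKM values, was 1.52, 1.28 and 0.966 in Eβf replicates 1 to 3 and 1.23 and 0.971 in control replicates 2 and 3, with control replicate 1 set to 1. Counts are not in the table, so the counting error of single values is not known.

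In all 100 genes the lowest Eβf library was at least 4.27 times the highest control library, which is what the selection asked for. The ratio was 8 or more in 41 genes, 16 or more in 14 and 32 or more in 4, with a median of 7.43. The mean Eβf FPKM was under 30 in 18 genes, from 30 to under 100 in 22, from 100 to under 300 in 29, from 300 to under 1000 in 17 and at least 1000 in 14. The mean control FPKM was under 1 in 15 genes, under 10 in 56 and under 100 in 92. Its median was 7.56 in the 100 genes, against 5.27 in all genes tested. Together the 100 genes took 1.93%, 2.45% and 3.67% of all FPKM in Eβf replicates 1 to 3, against 0.179%, 0.0924% and 0.189% in control replicates 1 to 3. The mean Eβf FPKM of the listed genes ran between 8.15 and 4595. Its median was 142.7, against 5.80 in all genes tested, which the 5 FPKM required in each Eβf library favours.

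**Figure D1:**
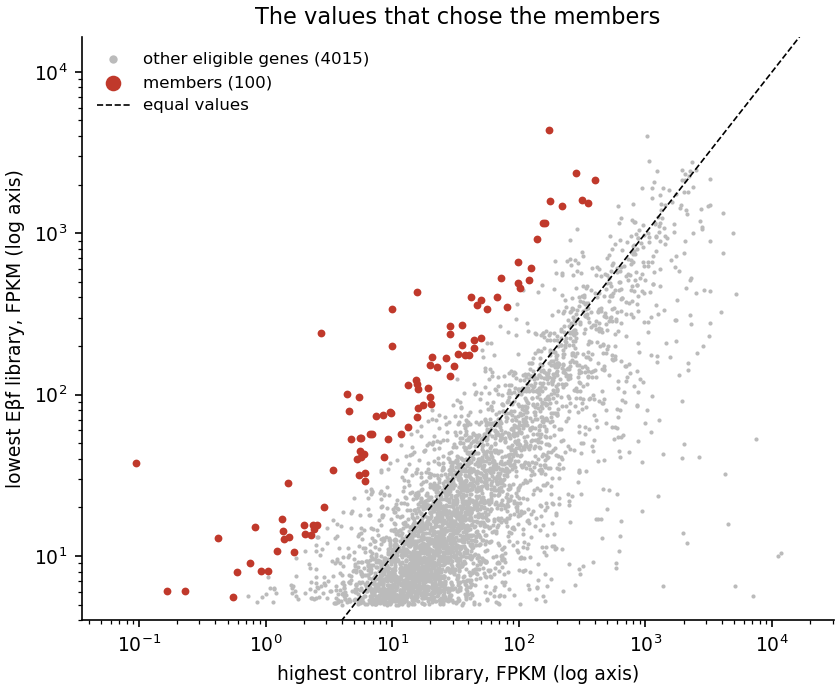
Lowest FPKM among the 3 Eβf libraries (vertical, log axis) against the highest FPKM among the 3 control libraries (horizontal, log axis) for the 4115 eligible genes. The 100 chosen genes (red) lie above the line of equal values by a ratio of 4.27 or more because they were chosen on these 2 values, and their highest control runs between values under 1 FPKM and 401.3 FPKM.

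The score fell smoothly at the end of the list. MSTRG.19801, at rank 99, had a score of 2.08, with a lowest Eβf FPKM of 5.59 and a highest control FPKM of 0.556. The last gene taken, evm_006503, had a score of 2.06, with 87.6 and 20.3. The first genes left out were evm_002506, with a score of 2.03 from 7.38 and 1.04, and evm_015158, also with 2.03, from 445.6 and 108.4. No gap in the score separates the list from the genes that follow it.

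By limma on log2(FPKM + 1), with Benjamini-Hochberg adjustment over the 11932 genes tested, 98 of the 100 genes were higher after Eβf at an adjusted p under 0.05. All 100 were among the genes tested, which reached 1 FPKM in 3 or more of the libraries. Of all genes tested 1.53% were higher at this threshold. All 3 Eβf libraries lay above all 3 controls in 12.8% of the genes tested and, by construction, in all 100. The same contrast chose the genes, so these calls describe them and support nothing. The difference in mean log2(FPKM + 1), Eβf minus control, had a median of 3.92 and ran between 2.397 and 9.68, beside a median of 0.16 over all genes tested. The genes that missed the threshold were evm_000929 and MSTRG.1248, with adjusted p = 0.0502 and 0.0508 from limma. The number of calls among the 100 genes depended on single libraries. It was 30, 2 and 3 without Eβf replicates 1, 2 and 3, 13 and 1 without control replicates 1 and 2, and 94 without control replicate 3. The calls over all 11932 genes tested moved too, so this is no trait of the listed genes. With all libraries 182 of them were higher after Eβf. The number was 69, 3 and 4 without Eβf replicates 1 to 3, and 24, 1 and 241 without control replicates 1 to 3. The median difference without control replicate 3 was 4.12.

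Not all genes that limma placed higher after Eβf are on the list. Of the 182, 98 are on it. Of the other 84, 37 had a lower score, 17 fell below 5 FPKM in an Eβf library, 11 were listed at 0 in all controls, 10 repeated the values of another ID and 9 were among the 100 most abundant genes.

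The gene with the highest score was evm_008801. Its FPKM was 239.9, 364.6 and 492.2 in Eβf replicates 1 to 3, against 2.74, 1.18 and 1.499 in control replicates 1 to 3. The lowest Eβf library was 87.4 times the highest control, the widest gap among the 94 listed genes with no control at 0. Its difference on the log2(FPKM + 1) scale was 7.01 (standard error 0.48, adjusted p = 0.00569 from limma). Over the alternatives run for single genes its adjusted p lay between 0.00414 and 0.0767. evm_004921 followed, with 50.5, 37.5 and 91.8 FPKM in the Eβf libraries, against 0.0940, 0 and 0 FPKM in the controls. It was all but undetected without Eβf. With 2 controls at 0 its difference depends on the pseudocount, and it was 5.79 with a pseudocount of 1, 8.81 with 0.1 and 11.32 with 0.01.

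The genes at ranks 3 and 4, evm_000928 and evm_000926, have IDs 2 apart. The first had 340.2, 417.5 and 1187 FPKM in the Eβf libraries, against 10.04, 5.26 and 5.27 FPKM in the controls. The second had 503.8, 429.9 and 655.4 FPKM in the Eβf libraries, against 7.40, 3.26 and 15.8 FPKM in the controls. Both were thus abundant after Eβf and near 10 FPKM or below in most controls. MSTRG.22409, at rank 5, had the highest mean level of the list, with 4341, 4764 and 4679 FPKM in the Eβf libraries. In control replicates 1 and 2 it was listed at 0, and in control replicate 3 at 173.9 FPKM. Its Eβf libraries lay close together while its controls did not. Its difference of 9.68 (standard error 1.85) was the greatest of the 100 and became 8.44 without either control at 0 and 12.16 without control replicate 3.

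The genes at ranks 6 to 8 had mean levels of 109.3 to 244.0 FPKM after Eβf. evm_003822 had 122.1, 101.5 and 126.8 FPKM after Eβf, against 4.39, 0.525 and 3.65 FPKM in the controls. evm_010940 had 288.4, 199.2 and 244.6 FPKM after Eβf, against 10.01, 4.59 and 9.03 FPKM in the controls. evm_002678 had 107.9, 123.0 and 97.0 FPKM after Eβf, against 5.46, 5.03 and 5.41 FPKM in the controls. In evm_002678 the highest control was only 1.08 times the lowest, and its difference was 4.12 (standard error 0.40, adjusted p = 0.0155 from limma). The genes at ranks 10 and 11 were scarcer. evm_003613 had 28.3, 39.0 and 48.7 FPKM after Eβf, against 1.502, 0.584 and 0.0168 FPKM in the controls. evm_004713 had 13.02, 20.3 and 29.5 FPKM after Eβf, against 0.192, 0.310 and 0.418 FPKM in the controls. evm_008032, at rank 12, was higher in both groups, with 404.9, 1275 and 1102 FPKM after Eβf, against 38.3, 22.3 and 41.7 FPKM in the controls.

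**Figure D2:**
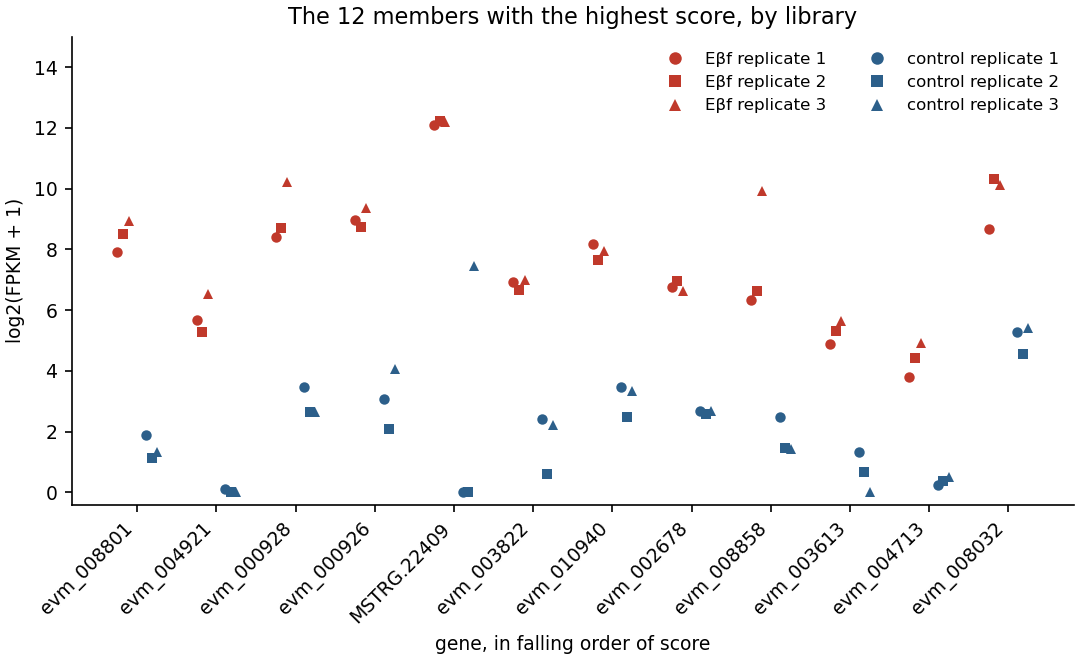
Level as log2(FPKM + 1) in each of the 6 libraries (symbols by replicate; Eβf in red on the left of each gene, control in blue on the right) for the 12 genes with the highest score. The groups do not overlap in any of them, as the selection required; MSTRG.22409 has 1 control at 173.9 FPKM and the others at 0, and evm_008858 has 1 Eβf library at 978.6 FPKM and the others under 100.

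Besides MSTRG.22409, the genes with the highest mean Eβf level were evm_013328, evm_005507, MSTRG.7840 and evm_005986. evm_013328 had 1149, 2704 and 8774 FPKM after Eβf, against 75.1, 69.8 and 160.7 FPKM in the controls. evm_005507 had 2142, 3063 and 4094 FPKM after Eβf, against 401.3, 317.7 and 156.3 FPKM in the controls, and evm_005505 and evm_005506 carry the same values. These transcripts were well detected in both groups. MSTRG.7840 had 3243, 2604 and 2351 FPKM after Eβf, against 281.4, 159.8 and 148.3 FPKM in the controls. evm_005986 had 1577, 1798 and 3875 FPKM after Eβf, against 105.9, 43.3 and 176.5 FPKM in the controls. MSTRG.7840 was highest in Eβf replicate 1, whereas evm_013328, evm_005507 and evm_005986 were highest in Eβf replicate 3.

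At the other end, 5 genes had 2 controls listed at 0. evm_004921 and MSTRG.22409 are given above. evm_015083 had 13.5, 12.8 and 21.9 FPKM after Eβf, against 0, 0 and 1.39 FPKM in the controls. evm_014793 had 15.6, 9.05 and 51.9 FPKM after Eβf, against 0, 0 and 0.749 FPKM in the controls. MSTRG.16307 had 13.05, 8.04 and 15.3 FPKM after Eβf, against 0, 1.05 and 0 FPKM in the controls. In 3 of these 5 genes the control above 0 was control replicate 3. An exact 0 may be a failed estimate rather than an absent transcript, and genes at 0 in all controls were left out by the rule.

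Of the 12 genes for which the study designed qPCR primers, only evm_010324 is on the list, at rank 48. It had 202.6, 148.8 and 394.1 FPKM after Eβf, against 22.8, 5.88 and 9.84 FPKM in the controls. The gene with the next ID, evm_010325, is also on the primer list and had a score of -0.06. Its groups overlapped, with 1217, 775.7 and 1914 FPKM after Eβf, against 400.7, 808.6 and 64.5 FPKM in the controls. evm_013436 was left out as one of the most abundant genes. The other 9 genes were not eligible. Among them evm_014368 had 8.21, 10.4 and 12.9 FPKM after Eβf, against 13.4, 12.8 and 6.72 FPKM in the controls. It met the level filters, so it fell out as a repeat of another ID's values. The rest were below 5 FPKM in an Eβf library, and MSTRG.19722 was listed at 0 in every library.

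Within the Eβf group the listed genes varied somewhat less than other genes in the median. The ratio of the highest to the lowest Eβf library had a median of 1.94 in the 100 genes, 2.13 in the eligible genes and 2.72 in all genes tested. It was 2 or less in 53 of the 100, against 44.7% of the eligible genes and 29.0% of all genes tested. It was above 5 in 9 of the 100, against 9.84% and 27.8%. On the log2(FPKM + 1) scale the upper quartile of the standard deviation was no lower than in the eligible genes, at 0.817 against 0.811. The rule favours a high lowest value, so a small ratio is in part built in. The ratio was smallest in evm_006503, with 87.6, 91.2 and 88.1 FPKM after Eβf, against 16.9, 12.1 and 20.3 FPKM in the controls. It was also small in evm_007152, with 14.5, 13.6 and 14.3 FPKM after Eβf, against 0.529, 0.237 and 2.30 FPKM in the controls. The widest was evm_008858, where Eβf replicate 3 alone was high. It had 79.2, 98.0 and 978.6 FPKM after Eβf, against 4.57, 1.77 and 1.72 FPKM in the controls. Its ID neighbour evm_008857 came next, with 173.4, 31.7 and 329.4 FPKM after Eβf, against 5.47, 2.53 and 0.383 FPKM in the controls. In this pair Eβf replicate 3 was the highest in both genes, but Eβf replicate 2 was the lowest in evm_008857 only.

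The controls of the listed genes spread more widely. The ratio of the highest to the lowest control had a median of 3.78 in the 94 genes with no control at 0, against 2.30 in the eligible genes and 2.54 in all genes tested. It was 2 or less in 12 of the 100 genes, against 39.5% of the eligible genes and 32.6% of all genes tested. It was above 5 in 36 of the 100, against 21.0% and 28.8%. The contrast was smaller on the log2(FPKM + 1) scale, which takes in the genes with a control at 0. There the standard deviation of the controls had a median of 0.717 in the 100 genes, 0.596 in the eligible genes and 0.556 in all genes tested. Its upper quartile was 1.016 in the 100 genes and 1.006 in the eligible genes. The order of the controls was also unlike that of other genes. Control replicate 3 was the highest control in 65 of the 100 genes, against 21.6% of all genes tested. Control replicate 2 was the lowest control in 76, against 17.9% of all genes tested. Control replicate 3 was above control replicate 2 in 82 of the 100 genes, against 28.6% of all genes tested. The median difference in log2(FPKM + 1), control replicate 3 minus control replicate 2, was 1.16 in the listed genes and -0.56 in all genes tested. The control that correlated least with the others was thus the one in which most listed genes lay closest to their Eβf level.

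This order was kept under both other scalings of the libraries. With median-of-ratios scaling, chosen for this comparison after seeing the data, control replicate 3 was the highest control in 74 of the 100 genes and control replicate 2 the lowest in 85, against 42.1% and 35.8% of all genes tested. The median difference between these controls was then 1.85 in the listed genes and 0.06 in all genes tested. With quantile normalization the counts were 73 and 84, against 32.2% and 28.7% of all genes tested. The rule uses only the highest control, and it does not use which library that is, but the values are those of the libraries that chose the genes. The order is therefore a description, and its cause was not tested. In the Eβf group the order of the deposited values was close to that of all genes. Eβf replicate 3 was the highest Eβf library in 69 of the 100 genes and in 65.7% of all genes tested. With median-of-ratios scaling it was so in 29 of the 100 and 35.8% of all genes tested, and with quantile normalization in 46 of the 100 and 34.1% of all genes tested.

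**Figure D3:**
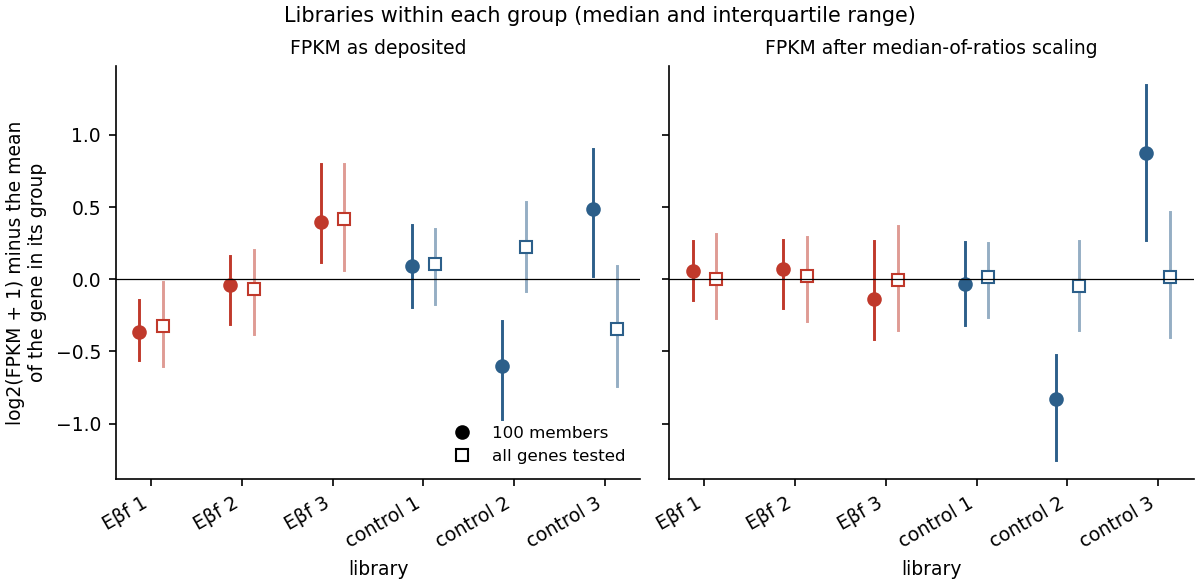
Deviation of each library from the mean of the gene in its group, in log2(FPKM + 1), as the median (symbol) and interquartile range (line) over the 100 listed genes (filled circles) and over all 11932 genes tested (open squares), with Eβf in red and control in blue. In the deposited values (left) control replicate 3 is high and control replicate 2 low in the listed genes, the opposite of all genes tested; after median-of-ratios scaling (right) the Eβf libraries come together, and the controls of the listed genes stay apart.

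Annotated gene models made up 76 of the 100 genes, compared with 63.6% of the eligible genes and 53.3% of all genes tested. The median difference was 4.02 on the log2(FPKM + 1) scale in the 76 annotated models and 3.63 in the 24 StringTie loci. Some of the listed genes have neighbouring IDs. With gaps of 3 or less between ID numbers, 20 of the 100 genes fell into 9 groups, 7 of annotated models and 2 of StringTie loci, and 14 genes formed 7 pairs of consecutive IDs. StringTie numbers its loci along the reference, and how the annotated models were numbered is not given in the sources used here. Coordinates are not in the table. Whether neighbours are copies, parts of a single gene or overlapping genes that share reads was not tested, and such genes are not independent of each other.

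The genes of the pair evm_004014 and evm_004015 had similar levels. The first had 383.8, 1713 and 1026 FPKM after Eβf, against 30.2, 11.8 and 50.1 FPKM in the controls. The second had 338.7, 641.7 and 722.4 FPKM after Eβf, against 12.1, 8.93 and 56.2 FPKM in the controls. In both genes control replicate 3 was the highest control and control replicate 2 the lowest. The pair evm_011399 and evm_011400 had the same order of controls. evm_011399 had 103.5, 143.3 and 82.9 FPKM after Eβf, against 7.29, 5.95 and 16.01 FPKM in the controls. evm_011400 had 403.8, 488.7 and 572.1 FPKM after Eβf, against 37.6, 13.4 and 67.3 FPKM in the controls.

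In the StringTie pairs 1 locus was far above its neighbour in every library. MSTRG.20813 had 1513, 1466 and 1672 FPKM after Eβf, against 218.7, 53.7 and 126.3 FPKM in the controls. MSTRG.20814 had 115.6, 144.3 and 139.6 FPKM after Eβf, against 15.7, 2.61 and 7.56 FPKM in the controls. The level of MSTRG.20813 was 10.2 to 13.1 times that of MSTRG.20814 in the Eβf libraries and 13.95 to 20.6 times in the controls. MSTRG.34130 had 419.6, 360.0 and 378.8 FPKM after Eβf, against 46.5, 17.0 and 44.1 FPKM in the controls. MSTRG.34131 had 15.5, 17.6 and 18.8 FPKM after Eβf, against 1.99, 0.353 and 1.20 FPKM in the controls. Both of these pairs were lowest in control replicate 2.

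The groups of 3 listed genes were not made of listed genes throughout. Between evm_000926 and evm_000928 lies evm_000927, with 0.622, 0.563 and 0.656 FPKM after Eβf, against 0.389, 0.793 and 0.927 FPKM in the controls. Its groups overlapped. evm_000929, next in number, had 1595.5, 1788 and 3166 FPKM after Eβf, against 316.4, 36.0 and 171.6 FPKM in the controls. Its values are repeated by evm_000930. In the group with evm_002023, evm_002024 and evm_002027, the genes in between lay on the same side without being on the list. evm_002023 had 459.2, 665.3 and 627.8 FPKM after Eβf, against 49.6, 30.9 and 101.8 FPKM in the controls. evm_002024 had 151.8, 186.3 and 165.9 FPKM after Eβf, against 11.2, 7.60 and 19.8 FPKM in the controls. evm_002027 had 109.2, 127.3 and 309.1 FPKM after Eβf, against 14.4, 8.49 and 19.0 FPKM in the controls. Of the genes in between, evm_002025 had a difference of 3.09 and evm_002026 of 2.24 on the log2(FPKM + 1) scale, with all Eβf libraries above all controls in both.

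The genes whose IDs stand next to a listed gene were not chosen by the rule. Of 163 such IDs that are not on the list and do not repeat a listed gene's values, 64 were tested, with 63 distinct sets of values because evm_003612 and evm_003614 hold the same ones. Their median difference was 1.42 on the log2(FPKM + 1) scale, against 0.16 over all genes tested. It was positive in 76.6% of them, against 58.3% of all genes tested. In 29 of the 64 (45.3%) all 3 Eβf libraries lay above all 3 controls, against 12.8% of all genes tested. Of the 64, 9 (14.1%) were higher by limma at an adjusted p under 0.05, against 1.53% of all genes tested. These figures depend on the filter on low values. In 6 of the 64 (9.4%, against 1.43% of all genes tested) all controls were under 1 FPKM, so that they were tested only through their Eβf level. In these 6 all Eβf libraries lay above all controls by construction, and 4 of the 9 calls were among them. They raise the median, the positive share, the share without overlap and the share of calls, so these figures describe the neighbours and support nothing. With equal values counted once the median was 1.39, the groups did not overlap in 28 genes (44.4%), and 8 (12.7%) were called. With no filter 142 of the IDs entered, with a median of 0.060, against 0.0052 over all genes, and all Eβf libraries lay above all controls in 24.6% of them, against 7.41% of all genes. With a mean FPKM of 5 or more over all 6 libraries, 46 entered, with a median of 1.99, against 0.26 over all genes, and the share was 47.8%, against 16.6%. Among annotated models alone the median was 1.45 in the 57 neighbours and 0.08 in all models tested. The 253 tested genes 2 to 5 IDs away had a median of 0.14, and all Eβf libraries lay above all controls in 20.9% of them. The median of the adjacent genes lay between 1.13 and 1.85 under the other scalings and pseudocounts and without each library, and it was 1.29 without control replicate 3. These alternatives were chosen after seeing the data. The neighbours were not matched on expression level, and shared reads were not tested.

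**Figure D4:**
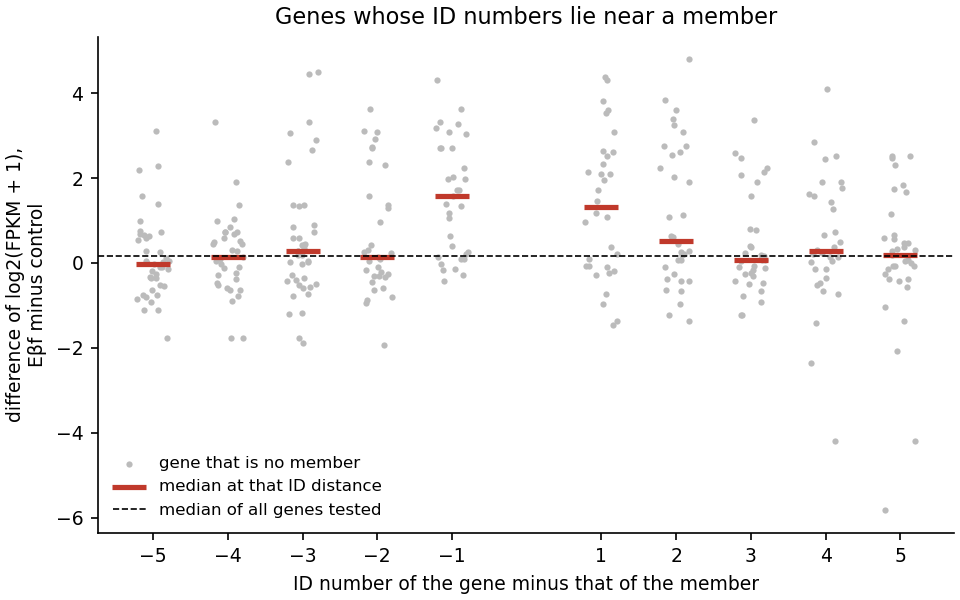
Difference of mean log2(FPKM + 1), Eβf minus control (vertical), of genes that are not on the list and do not repeat a listed gene's values, by the distance of their ID number from that of a listed gene (horizontal; 1 grey point a gene, shifted sideways for view). The medians (red bars) are 1.59 and 1.31 at distances of -1 and 1 and 0.52 at a distance of 2, and at the other distances they lie between -0.04 and 0.28, near the median of all genes tested, 0.16 (dashed).

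Some of these neighbours were abundant themselves. evm_003612 and evm_003614 lie on either side of evm_003613 and share the same values, 8586, 5347 and 5468 FPKM after Eβf, against 328.9, 117.4 and 820.0 FPKM in the controls. The first was left out of the list for its abundance and the second as a repeat of the first. evm_004264 had 116.5, 349.9 and 664.1 FPKM after Eβf, against 22.3, 1.81 and 44.5 FPKM in the controls. MSTRG.22408, beside MSTRG.22409, had 366.0, 401.6 and 394.5 FPKM after Eβf, against 97.0, 66.6 and 14.7 FPKM in the controls. Unlike its neighbour it was lowest in control replicate 3. The examples in these sentences were chosen after their values were seen.

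How far the list rests on its settings was read by changing 1 setting at a time. With pseudocounts of 0.1 and 0.01 the rule chose 86 and 85 of the 100 genes again. It chose 99 and 93 of them with a minimum of 1 and 10 FPKM, 94 when no gene was dropped for abundance, and 96 when genes at 0 in all controls were kept. Scaling mattered more, with 77 chosen again after median-of-ratios scaling and 83 after quantile normalization. A score from group means in place of the lowest and highest library chose 65. Without 1 library the number was 58, 84 and 78 for Eβf replicates 1 to 3 and 78, 91 and 68 for control replicates 1 to 3. The genes chosen again under all 15 settings numbered 42. They were 23 of the 25 genes with the highest score, 16 of those at ranks 26 to 50, 3 of those at ranks 51 to 75 and 0 of the last 25. The exceptions among the first 25 were evm_004921, chosen again in 14 of the 15 settings, and MSTRG.22409, in 12. Genes far above the cutoff are kept more easily than genes close to it. This order by rank is therefore in part built in and is no sign of stability.

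**Figure D5:**
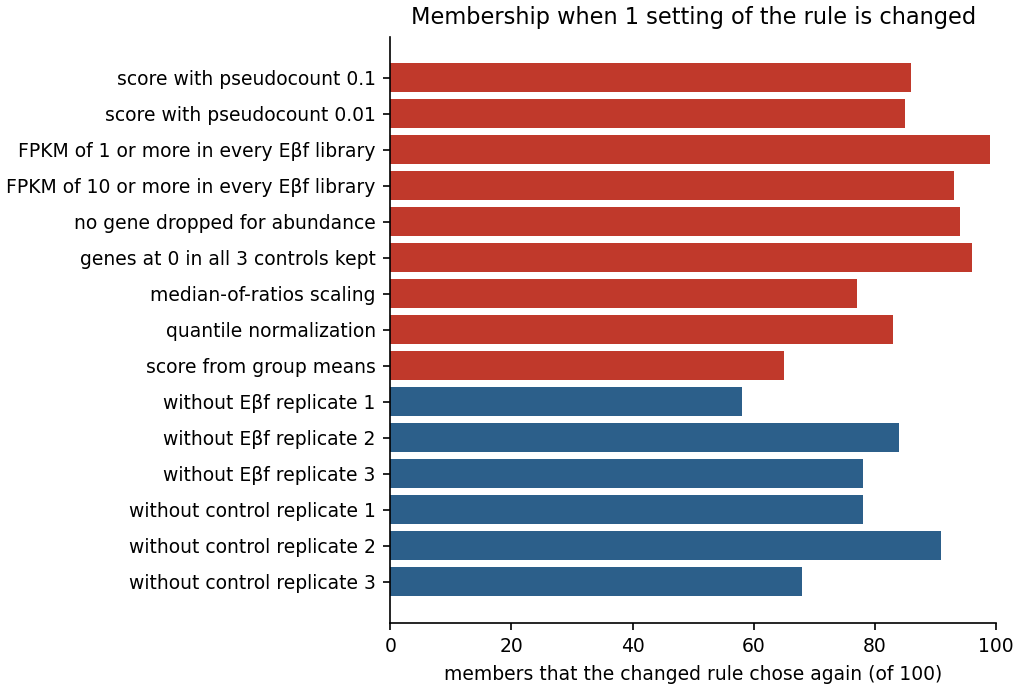
Number of the 100 listed genes that the rule chose again (horizontal) when 1 of its settings was changed (red bars) or 1 library was left out (blue bars). The bars run between 58 without Eβf replicate 1 and 99 with a minimum of 1 FPKM; every changed rule chose 100 genes.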

How the data were processed

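RNA-Seq libraries of 3rd instar larvae, 3 from each diet, were compared. HISAT2 and StringTie are named in the submitters' processing notes. The version of either tool is not given in the sources used here, nor is the build or the annotation. Read counts were divided by gene length and library size by the authors, who deposited the FPKM of every gene. Since the authors' DESeq test needs counts, log2(FPKM + 1) was compared by limma (version 3.58.1, R 4.3.3) instead, with diet as the single term and variances moderated toward a mean-variance trend. Tests were two-sided and Benjamini-Hochberg adjusted over all genes that reached 1 FPKM in 3 or more of the 6 libraries, with a threshold of 0.05. This scale understates the change of genes with low FPKM. The second line of the table, which names the libraries again by other codes, was skipped. Replicate numbers come from the library names.

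The 100 genes and all lists were chosen with earlier results of these data known. The named genes are the 12 with the highest score, the 5 with the highest mean Eβf FPKM, the 2 with the widest and the 2 with the narrowest Eβf ratio, those on the qPCR primer list, pairs of consecutive IDs, the genes at the edge of the score, and those with 2 controls at 0. The alternatives were other pseudocounts, filters, scalings, a replicate block, identical rows counted once, other settings of the rule and each library left out. The limma step was checked on simulated data. Marker lists could not be used, because the IDs carry no names. Python 3.11.15 with numpy 2.4.6, pandas 2.3.3 and matplotlib 3.10.9 served for the remaining steps.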

Additional observations from a re-analysis of the deposited data

How the results depend on the processing

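Of the 100 genes, 98 passed the limma threshold, and 76, 78, 80, 93 and 96 did with a pseudocount of 0.1, median-of-ratios scaling, quantile normalization, a mean FPKM of 5 or more and identical rows counted once. The number was 25 with a pseudocount of 0.01, 3 with no filter on low values, where 34485 genes enter the adjustment, and 1 to 94 without 1 library at a time. With the replicate block it was 0. Over all genes entered, the calls higher after Eβf were 182 in the main run. They were 108, 190, 184, 159 and 164 under the alternatives of the first sentence, in its order. With a pseudocount of 0.01 they were 34, with no filter on low values 3 and with the replicate block 0. Whether the replicate numbers pair the samples is not given in the sources used here. Same-numbered libraries deviated together at r = 0.15, -0.33 and -0.16, and differently numbered libraries at r between -0.13 and 0.32. These few correlations within groups of 3 libraries cannot decide whether same-numbered libraries shared a batch. The block also leaves fewer degrees of freedom. The median difference of 3.92 became 4.57 with a pseudocount of 0.01, and without 1 library at a time it lay between 3.60 and 4.15. Quantile normalization moved the median of all genes tested from 0.16 to 0.01, and relative to it the listed genes were at 3.76 as deposited and at 3.60 after it. The rule chose 65 of the genes again from group means and 58 to 91 without 1 library at a time. The count with Eβf replicate 3 as the highest Eβf library was 69 and became 29 with median-of-ratios scaling, and the count with Eβf replicate 1 as the lowest was 68 and became 22 with it and 37 with quantile normalization. The median of the adjacent genes, 1.42, became 0.060 with no filter on low values and 1.99 with a mean FPKM of 5 or more. For the 35 named genes, 170 of 385 alternative values kept their side of the threshold and 215 lost it. Their positive direction was set by the choice of genes and is no sign of stability. The causes were otherwise not tested. FPKM holds no counts, so depth sets no stated limit here.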
